A study of Rattus norvegicus with 12 samples.

Results

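Renal calcium and magnesium handling was followed through 10 genes that carry these ions across the cells of the distal nephron or buffer calcium inside them: Trpv5, Trpv6, Trpm6, Trpm7, Calb1, Pvalb, Slc8a1, Atp2b1, Atp2b4 and Cnnm2. Members were taken by gene symbol from the annotated gene table, and the row with the highest mean was kept where a symbol was repeated. Of the 10 genes, 9 had a row among the 20455 annotated genes, and all 9 were among the 14664 genes with enough reads to test. Pvalb, a cytosolic calcium buffer, was not analysed here.

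RNA was sequenced from kidney tissue of rats (Rattus norvegicus) in 3 groups of 4 libraries each. One group went through cardiopulmonary bypass with nitrite (CPB+Nitrite), one through cardiopulmonary bypass alone (CPB), and one was sham. Bypass circulates and oxygenates the blood outside the body during heart surgery, and kidney injury after it is the question of the study. The labels give no strain, age, sex, nitrite dose, bypass duration or sampling time, and they do not say that the libraries of a group came from separate animals, so p-values measure the spread between these libraries only.

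Most filtered calcium and magnesium is recovered before the distal convoluted and connecting tubule, where the final amount in urine is set cell by cell. Calcium enters these cells from the urine side through Trpv5 and Trpv6, is carried by the buffer Calb1, and leaves on the blood side through the sodium-calcium exchanger Slc8a1 and calcium pumps such as Atp2b1 and Atp2b4. Magnesium enters through channels that contain Trpm6, and Cnnm2 on the blood side is needed for its retention.

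The Trpv5 and Trpv6 genes lie side by side on the minus strand of chromosome 4, Trpv6 at chr4:70507348-70523017 and Trpv5 at chr4:70536440-70562745 in mRatBN7.2, the build of the deposited table, with 13422 bases between them. Their upstream sequences are shown because these neighbours had the largest positive changes after bypass among the 9 genes. Each sequence is the 250 bases before 1 RefSeq start of the gene in the newer assembly GRCr8, 5′ to 3′ on the gene's strand, at chr4:71489668-71489917 for Trpv6 and chr4:71529383-71529632 for Trpv5. Capitals mark the matches to any of the 7 short motifs searched on both strands.
Trpv6: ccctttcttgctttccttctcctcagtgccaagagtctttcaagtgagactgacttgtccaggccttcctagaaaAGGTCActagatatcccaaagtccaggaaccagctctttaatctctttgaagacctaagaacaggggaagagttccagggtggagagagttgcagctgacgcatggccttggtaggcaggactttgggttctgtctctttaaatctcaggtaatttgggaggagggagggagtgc
Trpv5: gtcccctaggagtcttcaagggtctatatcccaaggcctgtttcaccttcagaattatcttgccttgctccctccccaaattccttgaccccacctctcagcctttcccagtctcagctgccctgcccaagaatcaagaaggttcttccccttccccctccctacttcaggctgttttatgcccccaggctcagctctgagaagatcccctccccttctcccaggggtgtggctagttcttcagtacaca

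The Trpv6 window held 1 match, AGGTCA from base -175 to base -170, the core hexamer bound by nuclear receptors, the family of the vitamin D receptor. That motif was present in 14.1% of the 33469 rat windows of the same length. The Trpv5 window held no match. The second hexamer of this kind, searched as AGTTCA, occurred in 12.2% of windows. The TATA box, searched as TATAAA, occurred in 12.9%, and the GC box, searched as GGGCGG, in 30.5%. The CCAAT box occurred in 34.0% of windows. The AP-1 motif, searched as TGANTCA with any base for N, occurred in 6.34%, and the hypoxia response core, searched as ACGTG, in 16.6%. No matches overlapped each other in the windows shown. GC content was 49.2% for Trpv6 and 54.4% for Trpv5, beside a median of 51.2% over all windows. A match is a description of the letters only.

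Depth was 16837055 to 25776044 estimated reads a library. On the first principal component, which held 52.4% of the variance, CPB+Nitrite libraries lay at 42.4, -49.8, -33.3 and 27.3, CPB libraries between 46.8 and 76, and sham libraries between -73.9 and -37.4. CPB+Nitrite library 2 stood apart on the second component (16.2% of the variance) at -91.9, where the other 11 libraries lay between -36.4 and 27.6. Its summed level of 8 thick ascending limb markers was 859 CPM (counts scaled to the size of the library), against 5870 to 10900 CPM in the other CPB+Nitrite libraries. Its summed level of 8 endothelial markers was 2280 CPM, against 196 to 357 CPM in the other CPB+Nitrite libraries. Sham library 1 had the highest summed adipocyte and urothelial markers of its group (345 and 181 CPM), against 61.3 to 133 CPM and 2.51 to 52.3 CPM in the other sham libraries.

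After bypass, calcium entry channels were higher than in sham kidneys and most of the genes further along the route were lower. Trpv5 and Trpv6 rose 5.44-fold and 5.62-fold, and the calcium pump gene Atp2b1 rose 1.65-fold. The magnesium channel gene Trpm6 fell 2.53-fold, Calb1 fell 1.98-fold, Slc8a1 fell 3.9-fold, Atp2b4 fell 3.52-fold and Cnnm2 fell 1.81-fold. In all, 3 of the 9 genes rose, 5 fell, and Trpm7 did not pass the test (edgeR quasi-likelihood test, Benjamini-Hochberg adjusted p under 0.05 over all genes tested). The background was high: 43.2% of all tested genes were called in this comparison, 21.7% higher and 21.5% lower. The CPB and sham libraries of 8 of the 9 genes did not overlap, beside 48.2% of all tested genes. The median log2 change was -0.85 over the 9 genes and -0.05 over all tested genes.

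**Figure D1:**
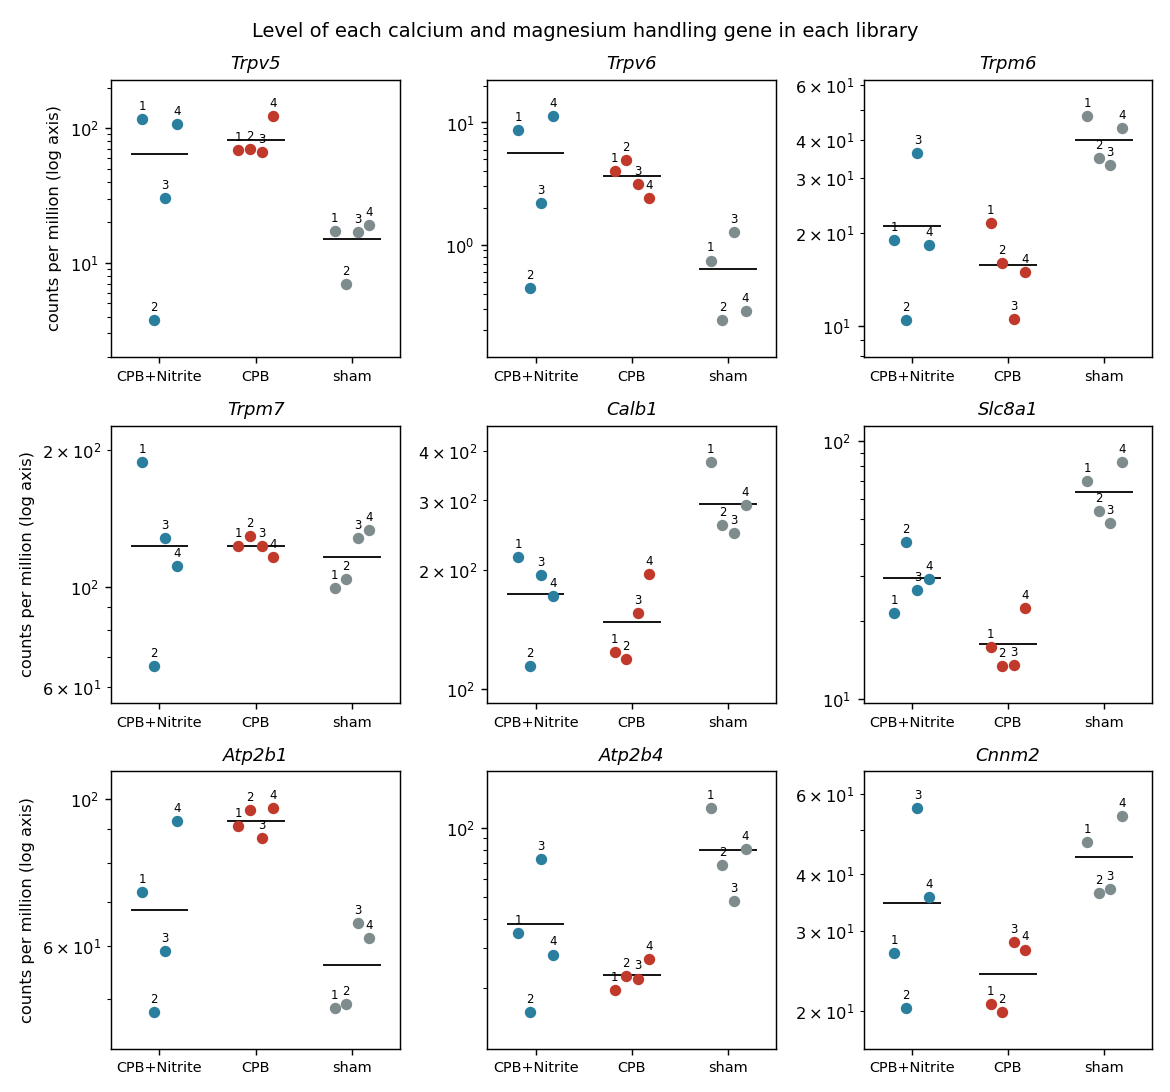
Level of each of the 9 genes in each of the 12 libraries, in CPM on a log axis, by group. Points are libraries with their numbers and bars are group means. CPB libraries lie above every sham library for Trpv5, Trpv6 and Atp2b1 and below every sham library for Trpm6, Calb1, Slc8a1, Atp2b4 and Cnnm2, and CPB+Nitrite libraries spread widely for Trpv5 and Trpv6.

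Trpv5 encodes the calcium-selective channel of the distal convoluted and connecting tubule. Its level was 68.3, 70.3, 66.3 and 122 CPM in CPB libraries, against 17.1, 7, 17 and 19 CPM in sham libraries. Every CPB library was above every sham library, with CPB library 4 high and sham library 2 low in their groups. The log2 change was 2.44 with a standard error (SE) of 0.73 (edgeR adjusted p = 0.0181). Without sham library 2 it was 2.21 with an adjusted p of 0.0527, the 1 leave-out in which the call was lost.

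Trpv6 encodes the closest relative of Trpv5, best known from calcium uptake in the gut and also present in rodent kidney. It had few reads, with 102, 91, 55 and 36 estimated reads in CPB libraries and 20, 6, 31 and 6 in sham libraries. Scaled to depth, these were 4.03, 4.91, 3.12 and 2.41 CPM in CPB libraries, against 0.745, 0.241, 1.27 and 0.29 CPM in sham libraries. The groups did not overlap, and the log2 change was 2.49 ± 0.81 (SE, edgeR adjusted p = 0.0259). The call was lost without sham library 1, 2 or 4 or without CPB library 2, where the adjusted p was 0.0537, 0.0703, 0.0664 and 0.0563, and the change stayed between 2.22 and 2.58. Trpv5 and Trpv6 are similar in sequence. How many reads fit both genes, and how the quantifier divided them, was not examined, so the split between them is uncertain.

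Trpm6 encodes a channel with a kinase domain that carries magnesium into the distal convoluted tubule cell, and its loss causes inherited low blood magnesium. Its level was 21.5, 16, 10.5 and 14.9 CPM in CPB libraries, against 47.5, 34.9, 33.2 and 43.5 CPM in sham libraries. All CPB libraries were below all sham libraries, and the log2 change was -1.34 ± 0.32 (SE, edgeR adjusted p = 0.007). Trpm7, the near relative of Trpm6 that most cell types express, had 123, 129, 123 and 116 CPM in CPB libraries, against 99.5, 104, 128 and 133 CPM in sham libraries. These groups overlapped, the log2 change was 0.08 ± 0.24 (SE, edgeR adjusted p = 0.798), and with total counts in place of the scaling factors its sign turned (-0.11).

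The pairs of relatives were compared within each library, where the scaling of libraries cancels. The log2 ratio of Trpm6 to Trpm7 averaged -3.01 ± 0.42 in CPB libraries and -1.55 ± 0.36 in sham libraries (SD, n = 4 each), a difference of -1.46 (exact permutation p = 0.0286, two-sided, the smallest that 4 against 4 libraries can give). The ratio of Trpv5 to Trpv6 averaged 4.49 ± 0.80 in CPB libraries and 4.72 ± 0.91 in sham libraries, a difference of -0.23 within the spread (exact permutation p = 0.686), and its sign turned with a pseudocount of 5. After Benjamini-Hochberg adjustment over the 9 ratio tests no ratio passed 0.05, and the lowest adjusted p of the exact permutation tests was 0.0644.

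Calb1 encodes calbindin, which ferries calcium across the cell and keeps its free level low. Its level was 124, 119, 156 and 195 CPM in CPB libraries, against 375, 260, 248 and 292 CPM in sham libraries. No library of one group reached the range of the other, and the log2 change was -0.99 ± 0.23 (SE, edgeR adjusted p = 0.00544).

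Slc8a1 encodes the exchanger that takes calcium out of the cell against sodium. It had the smallest p of the 9 genes in this comparison, ranking 38 among the 14664 tested. Its level was 15.9, 13.4, 13.6 and 22.6 CPM in CPB libraries, against 70.1, 53.6, 48.3 and 83 CPM in sham libraries. The highest CPB library was below the lowest sham library, and the log2 change was -1.96 ± 0.25 (SE, edgeR adjusted p = 0.000968).

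The calcium pumps went in opposite directions. Atp2b1, a pump of many tissues, had 90.9, 96.1, 87.2 and 96.9 CPM in CPB libraries, against 48.4, 49.1, 65.1 and 61.8 CPM in sham libraries, with no overlap. Its log2 change was 0.73 ± 0.19 (SE, edgeR adjusted p = 0.00944). Atp2b4, a pump found in muscle, red cells and distal tubule, had 19.6, 22.6, 22 and 26.8 CPM in CPB libraries, against 122, 69, 47.9 and 80.6 CPM in sham libraries. The CPB libraries lay close together below a wide sham range, and the log2 change was -1.81 ± 0.40 (SE, edgeR adjusted p = 0.00459). The log2 ratio of Atp2b1 to Atp2b4 averaged 2.03 ± 0.15 in CPB libraries and -0.44 ± 0.73 in sham libraries (SD, n = 4 each), a difference of 2.48 (exact permutation p = 0.0286, adjusted 0.0644). Every CPB library had more Atp2b1 relative to Atp2b4 than every sham library.

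Cnnm2 encodes a membrane protein of the blood side that is mutated in inherited magnesium loss. Its level was 20.7, 19.9, 28.4 and 27.3 CPM in CPB libraries, against 47, 36.4, 37 and 53.7 CPM in sham libraries. The groups did not overlap, and the log2 change was -0.85 ± 0.27 (SE, edgeR adjusted p = 0.0246). The call was lost without sham library 1 or 4 or CPB library 1 or 2, where the adjusted p was 0.0563, 0.0682, 0.0585 and 0.0681, and the change stayed between -0.81 and -0.74.

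**Figure D2:**
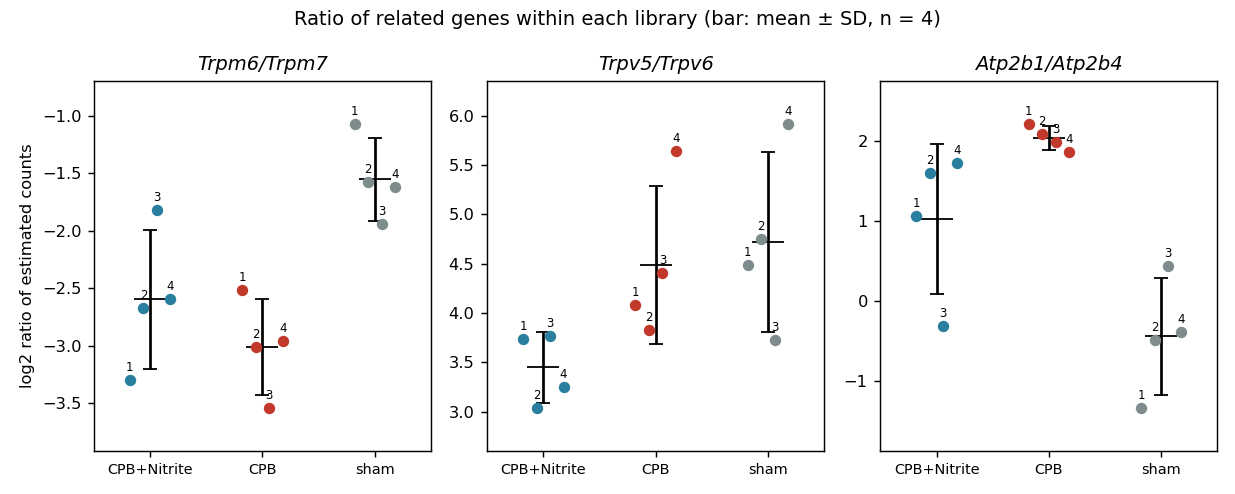
Log2 ratio of estimated counts of 3 pairs of related genes in each library, by group, with the group mean and SD (n = 4). The Trpm6 to Trpm7 ratio is lower in every CPB library than in every sham library, the Atp2b1 to Atp2b4 ratio is higher in every CPB library than in every sham library, and the Trpv5 to Trpv6 ratio overlaps between CPB and sham.

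Markers of the tubule segment that holds most of these genes also moved. Of 9 listed markers of the distal convoluted and connecting tubule 8 had a row, all 8 had a negative log2 change in CPB against sham kidneys, and 5 of the 8 fell (median -1.41). The falling markers were Ppp1r1a, Klhl3, Emx1, Tmem52b and Stk39, while Slc12a3, Sall3 and Tfap2b did not pass the test. Their summed level was 371 to 583 CPM in CPB libraries, against 778 to 1430 CPM in sham libraries, and none was at 0 in a group mean. The fall was not particular to this segment: 4 of 8 proximal tubule markers fell (2740 to 3740 CPM in CPB libraries, against 4470 to 6190 CPM in sham libraries), as did 3 of 8 collecting duct principal cell markers (645 to 1080 CPM in CPB libraries, against 1300 to 1850 CPM in sham libraries) and 3 of 6 intercalated cell markers. Not every list moved this way. Of 8 thick ascending limb markers 1 rose and 1 fell. Their sums overlapped, at 6330 to 10400 CPM in CPB libraries, against 8690 to 11300 CPM in sham libraries. Of 8 endothelial markers 2 rose and 2 fell. Among all tested genes 21.5% were called lower in this comparison. Of 8 smooth muscle and pericyte markers 5 fell, with a summed level of 56.6 to 136 CPM in CPB libraries, against 656, 173, 99.3 and 165 CPM in sham libraries. Sham library 1, the high one there, also held the highest Trpm6, Calb1 and Atp2b4 of its group. Without it the log2 changes of these 3 genes were -1.24, -0.85 and -1.53, and all remained past the threshold (edgeR adjusted p = 0.0216, 0.0191 and 0.0158). The part of these markers in the falls of Trpm6, Calb1, Slc8a1, Atp2b4 and Cnnm2 was not tested. In whole tissue, fewer cells of a type and less RNA per cell cannot be told apart. Trpv5, a channel of the same segment, was higher in CPB kidneys while the segment's markers were lower.

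**Figure D3:**
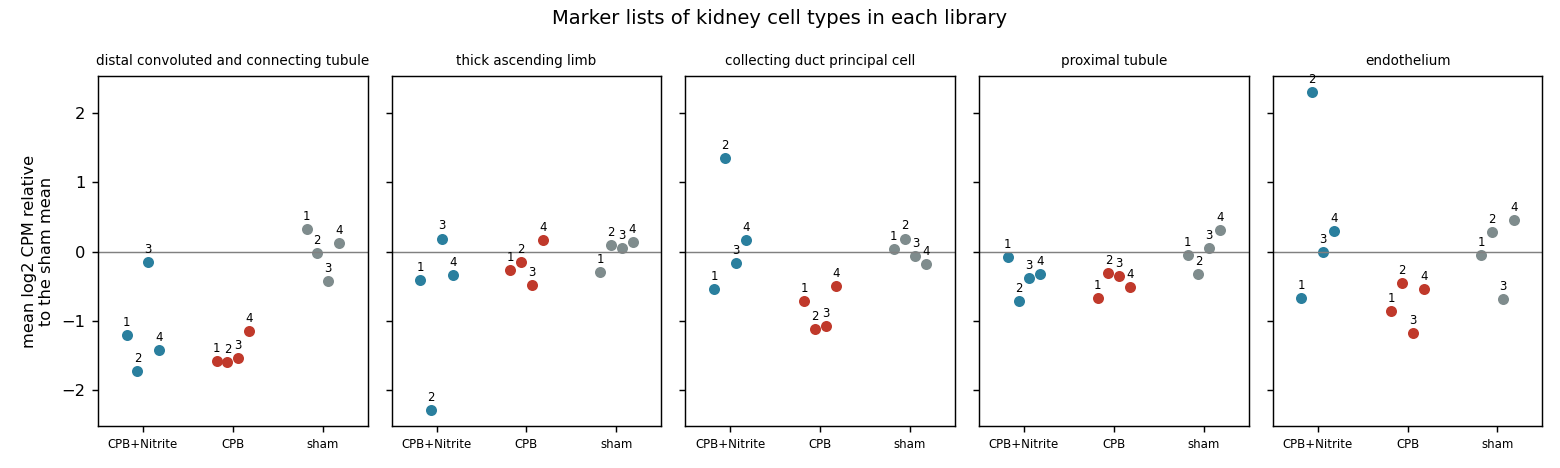
Mean log2 level of 5 kidney marker lists in each library, relative to the mean of the sham libraries, by group. The distal convoluted and connecting tubule list lies between -1.6 and -1.15 in CPB libraries, against -0.417 to 0.323 in sham libraries, and CPB+Nitrite library 2 stands apart in the thick ascending limb, collecting duct and endothelial lists.

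Nitrite was compared with bypass alone next. By edgeR none of the 9 genes passed the threshold, and neither did any of the 14664 tested genes (0% called), although 4315 of them had a raw p under 0.05; after adjustment the lowest p of any gene was 0.0556. DESeq2 called 2239 genes and limma voom 1 gene. Slc8a1 came nearest of the 9, and DESeq2 called it alone among them (log2 change 0.84, adjusted p = 0.02). None of the 9 genes had groups that did not overlap, beside 12.7% of all tested genes. The log2 change was positive for 7 of the 9 genes, with a median of 0.41 beside 0.05 over all tested genes, and for Trpm7 the sign turned in 4 of the settings that kept all libraries.

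Slc8a1 had 21.5, 40.8, 26.6 and 29.3 CPM in CPB+Nitrite libraries, against 15.9, 13.4, 13.6 and 22.6 CPM in CPB libraries. The groups overlapped only through CPB+Nitrite library 1 and CPB library 4. The log2 change was 0.85 ± 0.24 (SE, edgeR adjusted p = 0.0641), 0.66 without CPB+Nitrite library 2 (adjusted p = 0.159) and 0.94 without CPB+Nitrite library 1 (adjusted p = 0.0248). In the last fit 1576 of 14859 genes were called higher and 1289 lower. Smooth muscle and pericyte markers summed to 228 to 280 CPM in CPB+Nitrite libraries, against 56.6 to 136 CPM in CPB libraries. All 8 had a positive log2 change (median 1.57), and 0 passed. Of 8 distal convoluted and connecting tubule markers 6 had a positive change. Their sum was lowest in CPB+Nitrite library 2 (271 CPM), where Slc8a1 was highest. The part of these markers in Slc8a1 was not tested.

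The entry channels spread most among CPB+Nitrite libraries. Trpv5 had 117, 3.74, 30.3 and 107 CPM in CPB+Nitrite libraries, with a mean of 64.5 ± 56 CPM against 81.7 ± 26.9 CPM in CPB libraries (SD, n = 4 each). Trpv6 had 8.71, 0.44, 2.2 and 11.2 CPM in CPB+Nitrite libraries, with a mean of 5.65 ± 5.15 CPM against 3.62 ± 1.09 CPM in CPB libraries. For both genes CPB+Nitrite libraries 1 and 4 were high, library 3 was lower and library 2 was lowest. The log2 change was -0.34 for Trpv5 and 0.64 for Trpv6 (edgeR adjusted p = 0.757 and 0.57). Without CPB+Nitrite library 2 it was 0.05 for Trpv5 and 1.03 for Trpv6. The log2 ratio of Trpv5 to Trpv6 averaged 3.45 ± 0.36 in CPB+Nitrite libraries and 4.49 ± 0.80 in CPB libraries (SD, n = 4 each). That difference of -1.04 separated all libraries of the groups (exact permutation p = 0.0286, adjusted 0.0644), and it was -0.90 without CPB+Nitrite library 2.

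For the magnesium genes and Atp2b4, CPB+Nitrite library 3 was the high one. Trpm6 had 19, 10.4, 36.1 and 18.3 CPM in CPB+Nitrite libraries and a log2 change of 0.41 (edgeR adjusted p = 0.394) against CPB. Atp2b4 had 34.6, 15.7, 73.4 and 28 CPM and a change of 0.74 (adjusted p = 0.22). Cnnm2 had 26.8, 20.3, 55.8 and 35.6 CPM and a change of 0.52 (adjusted p = 0.211). In each of these genes library 2 was the lowest and library 3 lay within the sham range or, for Cnnm2, just above it. The summed distal convoluted and connecting tubule markers followed the same order at the extremes, with 735, 271, 913 and 427 CPM in the 4 CPB+Nitrite libraries. Their part in these values was not tested. Without CPB+Nitrite library 3 the changes against CPB were 0.01 for Trpm6, 0.20 for Atp2b4 and 0.19 for Cnnm2 (edgeR adjusted p = 0.985, 0.691 and 0.583). They were 0.63, 1.0 and 0.71 without CPB+Nitrite library 2 (adjusted p = 0.224, 0.156 and 0.156).

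Calb1 had 216, 114, 194 and 172 CPM in CPB+Nitrite libraries, with a log2 change of 0.23 against CPB (edgeR adjusted p = 0.495). Atp2b1 had 72.3, 47.7, 59 and 92.6 CPM, with a change of -0.45 (adjusted p = 0.135). Trpm7 had 188, 66.7, 128 and 111 CPM, and its mean of 123 CPM equalled that of CPB libraries to 3 digits. All of these groups overlapped with CPB. The log2 ratio of Atp2b1 to Atp2b4 averaged 1.02 ± 0.94 in CPB+Nitrite libraries and 2.03 ± 0.15 in CPB libraries (SD, n = 4 each), a difference of -1.02 (exact permutation p = 0.0286, adjusted 0.0644). CPB+Nitrite library 3, at -0.32, lay furthest from the CPB libraries, and without it the difference was -0.57.

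Against sham kidneys, kidneys with bypass and nitrite had 1 of the 9 genes higher, Trpv6, and 1 lower, Slc8a1. This comparison uses the same sham libraries as the comparison of CPB with sham. Of all tested genes 4.81% were called, 3.85% higher and 0.955% lower. The groups did not overlap for Calb1 and Slc8a1, 2 of the 9 genes, beside 11.5% of all tested genes. The median log2 change was -0.33 over the 9 genes and 0.04 over all tested genes.

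Trpv6 was 8.75-fold higher in CPB+Nitrite than in sham kidneys, a log2 change of 3.13 ± 0.82 (SE, edgeR adjusted p = 0.0498), although CPB+Nitrite library 2 lay inside the sham range. The call sat at the threshold and was lost in 13 of 21 alternative settings, and without CPB+Nitrite library 2 the change was 3.52 (adjusted p = 0.014). Slc8a1 was 2.16-fold lower, a log2 change of -1.11 ± 0.24 (SE, adjusted p = 0.0367), with all CPB+Nitrite libraries below all sham libraries. That call was lost in 9 of 21 settings, among them the fit of the 8 libraries alone (adjusted p = 0.113), and the change stayed between -1.30 and -0.96. Trpv5 had a change of 2.10 (adjusted p = 0.0924), and 2.5 without CPB+Nitrite library 2 (adjusted p = 0.014). Leaving out that library thus gave 3 called members against sham, Trpv5, Trpv6 and Slc8a1, and 0 against CPB. Calls over all genes rose too, to 1324 higher and 472 lower of 14778 tested against sham. With all libraries these were 565 and 140 of 14664.

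The other members did not pass the test against sham. Calb1 changed by -0.76 on the log2 scale (edgeR adjusted p = 0.0642) with no overlap of libraries, Trpm6 by -0.93 (0.094), Atp2b4 by -1.08 (0.107), Cnnm2 by -0.33 (0.449), Atp2b1 by 0.28 (0.353) and Trpm7 by 0.08 (0.846). Without CPB+Nitrite library 3, Trpm6, Calb1 and Atp2b4 passed (adjusted p = 0.00716, 0.0405 and 0.00633), as did Trpv5 (0.0473). Calls over all genes rose in the same fit, to 1620 higher and 1356 lower of 14886 tested. With all libraries these were 565 and 140 of 14664. CPB+Nitrite library 3 held the highest Trpm6, Atp2b4 and Cnnm2 of its group.

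**Figure D4:**
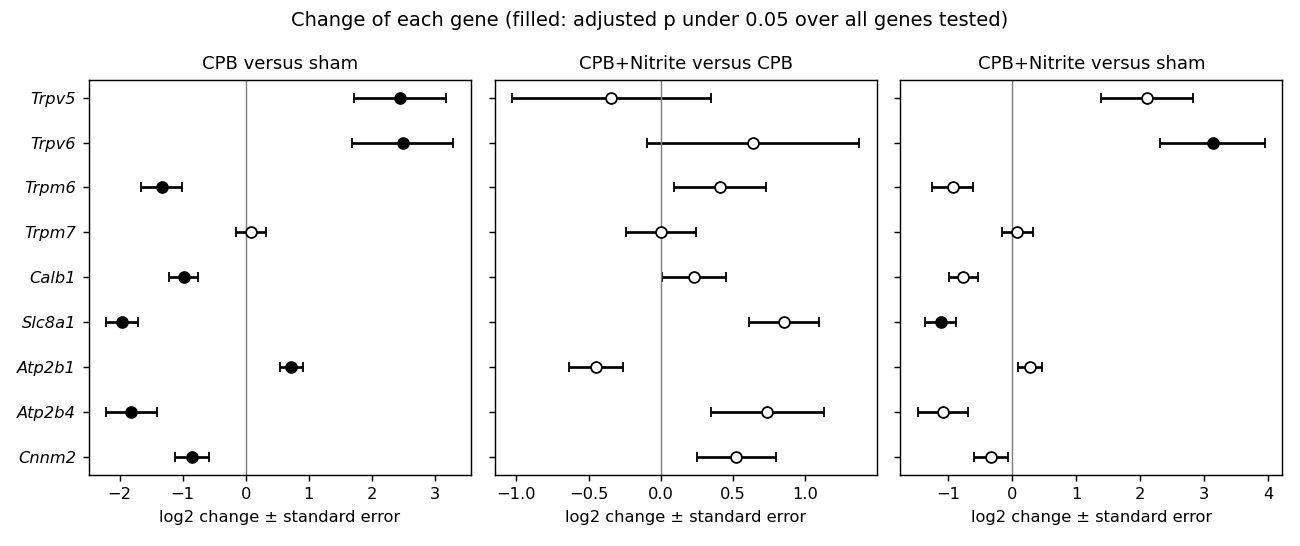
Log2 change of each of the 9 genes with its standard error in 3 comparisons: CPB against sham, CPB+Nitrite against CPB, and CPB+Nitrite against sham. Filled points had an adjusted p under 0.05 over all genes tested; 8 genes are filled in CPB against sham, none in CPB+Nitrite against CPB, and Trpv6 and Slc8a1 in CPB+Nitrite against sham.

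Beyond the 10 genes, 4 lists of related genes were read in the same fit. Their calls are read beside the 43.2% of all tested genes called in CPB against sham kidneys (21.7% higher, 21.5% lower). The first list holds other calcium and magnesium carriers and their partners. In CPB against sham kidneys 7 of its 19 tested genes rose and 9 fell, with a median log2 change of -0.47. Anxa2 and its partner S100a10, which bind the Trpv channels and bring them to the cell surface, rose by 2.07 ± 0.41 and 2.37 ± 0.40 on the log2 scale (SE, edgeR adjusted p = 0.00281 and 0.00153). S100a10 had 462, 338, 308 and 262 CPM in CPB libraries, against 65.9, 62.4, 91.6 and 44.5 CPM in sham libraries, with no overlap. Ptp4a1, a phosphatase that binds the Cnnm proteins, rose by 1.87 ± 0.32 (adjusted p = 0.00153). Its level was 218, 253, 266 and 195 CPM in CPB libraries, against 52.3, 53.7, 91.1 and 58 CPM in sham libraries, also with no overlap.

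Families within this list split, as the 9 genes did. Among the Cnnm relatives Cnnm4 rose (1.94) while Cnnm1 and Cnnm3 fell (-0.90 and -0.72, log2). Among the Slc41 magnesium carriers Slc41a1 and Slc41a2 rose (0.94 and 1.33) while Slc41a3 fell (-1.52). The calls of Cnnm1 and Cnnm3 were each lost in 6 of 21 alternative settings and that of Slc41a1 in 7. Those of Cnnm4, Slc41a2 and Slc41a3 were lost in 0. The other calcium exchangers Slc8a2 and Slc8a3 fell (-0.62 and -2.03), as did the pump Atp2b2 (-1.54). Slc8a3 had few reads, with a mean of 0.2 CPM in CPB libraries and 0.873 CPM in sham libraries. S100g, the smaller calbindin of gut and kidney, had 1.8 ± 0.56 CPM in CPB libraries and 1.1 ± 0.32 CPM in sham libraries (SD, n = 4 each) and did not pass (edgeR adjusted p = 0.154). Cnnm4, Ptp4a1, Anxa2 and S100a10 were also higher in CPB+Nitrite than in sham kidneys, by 1.55, 1.33, 1.79 and 1.5 on the log2 scale (adjusted p = 0.0499, 0.0408, 0.0391 and 0.0498), and the other 15 tested genes did not pass. These calls lay close to the threshold: Cnnm4 lost its call in 12 of 21 alternative settings, Ptp4a1 and Anxa2 in 11 and S100a10 in 13, with adjusted p up to 0.151. Among all tested genes 3.85% were called higher in CPB+Nitrite against sham kidneys, and 0.955% lower.

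The paracellular route is the path between cells by which the thick ascending limb returns both ions. Its list held the claudin genes Cldn10, Cldn14, Cldn16 and Cldn19, and the thick ascending limb genes Slc12a1, Kcnj1 and Umod, which are not claudins. Of these 7 genes 0 rose and 2 fell in CPB against sham kidneys (median -0.41). The 2 calls were 28.6% of the list, below the 43.2% of all tested genes. Cldn16, a claudin that forms the magnesium and calcium pore, fell by 1.5 on the log2 scale (SE 0.379, edgeR adjusted p = 0.00854). It had 13.3, 12.5, 9.4 and 10.9 CPM in CPB libraries, against 25.4, 32.1, 32.9 and 40.4 CPM in sham libraries, and the groups did not overlap. Cldn14, a claudin that blocks that pore, averaged 0.133 ± 0.133 CPM in CPB libraries and 1.11 ± 0.724 CPM in sham libraries (SD, n = 4 each). It fell by 3.10 on the log2 scale (edgeR adjusted p = 0.0345), a call lost in 5 of the 12 leave-outs.

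Among 14 genes of hormonal control and calcium sensing, 3 rose and 5 fell (median -0.53). Casr, the receptor by which kidney cells read extracellular calcium, had 2.25, 1.62, 3.46 and 2.01 CPM in CPB libraries, against 34, 43.2, 15.3 and 47.5 CPM in sham libraries. Its log2 change of -3.90 ± 0.78 (SE, edgeR adjusted p = 0.00284) was the most negative of the list. The receptor of parathyroid hormone, Pth1r, fell by 1.73 (adjusted p = 0.00127), the vitamin D receptor Vdr by 1.04 (0.0159), the estrogen receptor Esr1 by 1.84 (0.0186) and Kl by 1.49 (0.00555), where Kl is the FGF23 co-receptor. Cyp27b1, the enzyme that makes active vitamin D, had 5.33, 7.77, 7.82 and 6.16 CPM in CPB libraries, against 1.56, 0.724, 0.9 and 2.13 CPM in sham libraries. It rose by 2.35 ± 0.69 (SE, adjusted p = 0.0169), a call lost without sham library 2 (adjusted p = 0.0508). Fgfr1 and Egfr, growth factor receptors, rose by 1.28 and 1.96 (adjusted p = 0.00101 and 0.00489). Egf, whose product stimulates Trpm6, averaged 1410 ± 598 CPM in CPB libraries and 2010 ± 476 CPM in sham libraries (SD, n = 4 each) and did not pass (adjusted p = 0.448).

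The last list holds genes of distal salt transport that are tied to inherited magnesium loss. Of 10 tested genes 0 rose and 2 fell in CPB against sham kidneys (median -0.39), and 4 fell when CPB+Nitrite library 2 was left out of the shared fit. Calls over all genes rose in that fit too, to 3697 higher and 3877 lower of 14778 tested. With all libraries these were 3184 and 3148 of 14664. The 2 calls with all libraries were 20% of the list, below the 43.2% of all tested genes. Kcnj10, the potassium channel of the blood side of this cell, had 5.06, 5.18, 4.98 and 5.36 CPM in CPB libraries, against 77.5, 71.7, 51.2 and 91.7 CPM in sham libraries, a log2 change of -3.83 ± 0.56 (SE, edgeR adjusted p = 0.00107). Bsnd, a subunit of the chloride channels, fell by 3.23 (adjusted p = 0.00789). Slc12a3, the sodium-chloride cotransporter that defines the segment, had 267, 220, 207 and 383 CPM in CPB libraries, against 822, 335, 320 and 600 CPM in sham libraries. These overlapped, and its change of -0.95 did not pass (adjusted p = 0.155); without CPB+Nitrite library 2 in the shared fit the adjusted p was 0.04. Kcnj10 was the 1 gene of this list called in CPB+Nitrite against sham kidneys (-1.93, edgeR adjusted p = 0.0499), a call lost in 14 of 21 settings. Among all tested genes 4.81% were called in that comparison.

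**Figure D5:**
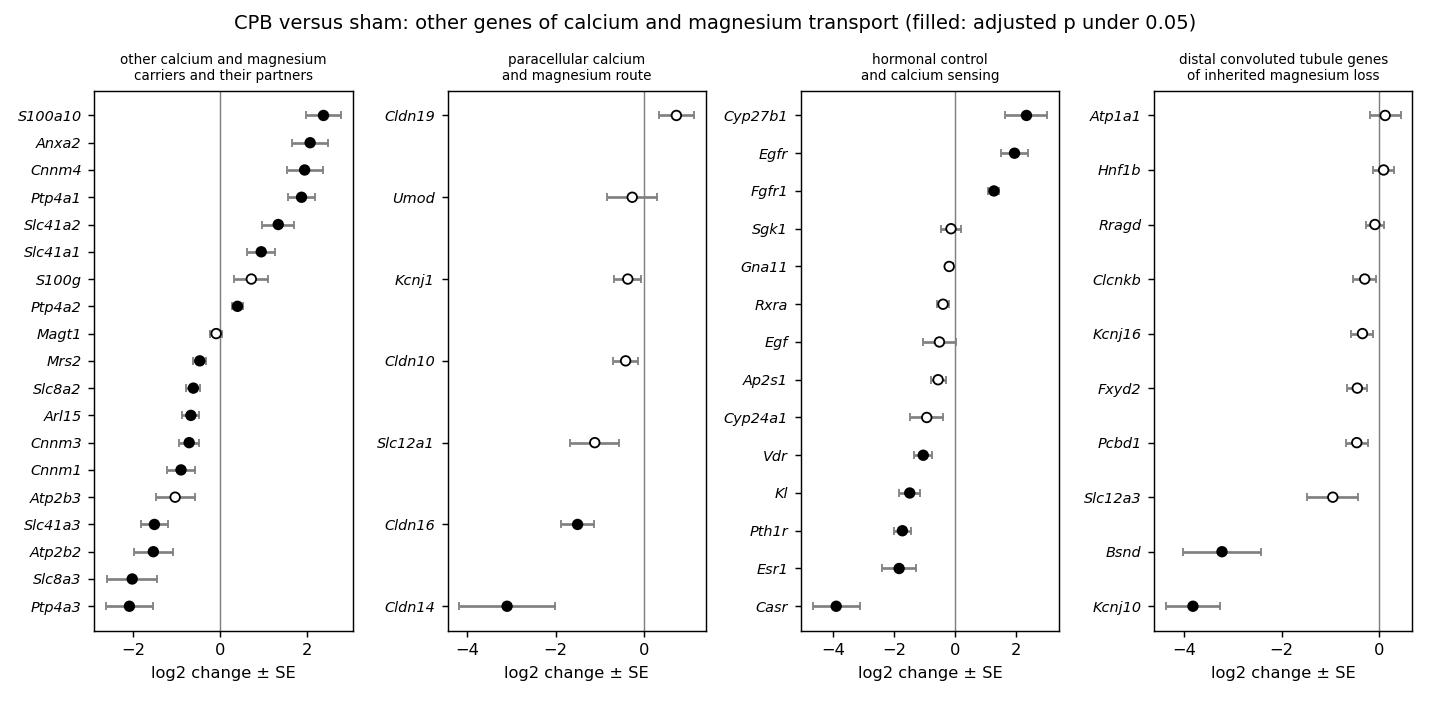
Log2 change with standard error in CPB against sham kidneys for the tested genes of 4 lists around calcium and magnesium transport. Filled points had an adjusted p under 0.05 over all genes tested: 7 rose and 9 fell among the carriers and partners, 2 fell in the paracellular list, 3 rose and 5 fell in the hormonal list, and 2 fell in the magnesium loss list. Of all tested genes 43.2% were called in this comparison.

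In CPB+Nitrite against CPB no gene of these 4 lists passed the edgeR threshold. Nearest were Bsnd (3.66), Ptp4a3 (2.47) and Fgfr1 (-0.89), each with an adjusted p of 0.0556. Bsnd had 10.4, 344, 59 and 44.9 CPM in CPB+Nitrite libraries, with library 2 far above the rest. Without CPB+Nitrite library 2 these changes were 2.07 for Bsnd, 1.85 for Ptp4a3 and -0.745 for Fgfr1 (edgeR adjusted p = 0.113, 0.115 and 0.104). All of them passed without CPB+Nitrite library 1 (edgeR adjusted p = 0.00681, 0.00804 and 0.0109). Among all 14859 genes tested in that fit, 1576 were called higher and 1289 lower against CPB. Casr had 1.56, 3.99, 21.3 and 1.78 CPM in CPB+Nitrite libraries, so that its change of 1.61 against CPB rested on library 3 and was 0.07 without it. Vdr changed by 0.57, Cldn16 by 0.49, Slc12a3 by 0.24, Egf by -0.12 and Cyp27b1 by -1.35, with adjusted p between 0.192 and 0.892. In the same order the changes were 0.72, 0.77, 0.59, 0.23 and -0.95 without CPB+Nitrite library 2, and none of the 5 passed. Against sham, Casr changed by -2.30, Cldn16 by -1.01, Vdr by -0.48, Slc12a3 by -0.71, Egf by -0.64 and Cyp27b1 by 1.0, and none of these 6 passed (adjusted p between 0.0718 and 0.456). Without CPB+Nitrite library 2, where Slc12a3, Egf and Cyp27b1 were lowest, their changes against sham were -0.36, -0.28 and 1.40, and again none of the 6 passed. Casr, Cldn16 and Vdr changed by -3.83, -1.53 and -0.85 without CPB+Nitrite library 3, and these passed (edgeR adjusted p = 0.000946, 0.00608 and 0.0317). Among all 14886 genes tested in that fit, 1620 were called higher and 1356 lower against sham.

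The genes whose levels varied most like each member within the groups were found from deviations from the group means over all 12 libraries, among 12161 genes. For Trpv5 they were Rangap1, Whamm and Terf2 (Pearson r 0.988, 0.985 and 0.978), and for Trpv6 they were Trib1, Il7 and Slc20a1 (0.968, 0.967 and 0.967). For Trpm6 they were Tmem82, Crat and Ints7 (0.951, 0.95 and 0.948), and for Trpm7 Hif1an, Wdr48 and Zfp422 (0.968, 0.968 and 0.954). Slc20a1 encodes a phosphate carrier, and Crat a mitochondrial acyl transferase. For Calb1 they were Trpc4ap, Hadha and Tp53bp2 (0.959, 0.939 and 0.933), and for Slc8a1 Ebf1, Ptprn2 and Ecm1 (0.927, 0.914 and 0.906). For Atp2b1 they were Fbxo30, Rell1 and Rnd3 (0.984, 0.976 and 0.975), for Atp2b4 Dgcr2, Tti1 and Med25 (0.947, 0.944 and 0.939), and for Cnnm2 Ap3b1, Pik3r4 and Ccdc6 (0.958, 0.951 and 0.944). No other member or listed gene was among these 27. The groups did not spread alike. The SD of Trpv5 was 56 CPM in CPB+Nitrite, 26.9 CPM in CPB and 5.42 CPM in sham libraries. Calb1, Slc8a1 and Atp2b4 had their largest SD in CPM in sham libraries, and the other members in CPB+Nitrite libraries. The r values were computed on log2 CPM, so these SDs do not show which group weighs most in them. The part of each group in the r values was not tested. These r values are measures of likeness over shared libraries and carry no test.

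In mRatBN7.2 the remaining genes lie at chr1:216170038-216320520 (Trpm6, plus strand), chr3:114046258-114135190 (Trpm7, minus), chr5:29375642-29402431 (Calb1, plus), chr6:13194662-13535628 (Slc8a1, plus), chr7:33735871-33843295 (Atp2b1, plus), chr13:45156146-45255246 (Atp2b4, minus) and chr1:245643768-245763286 (Cnnm2, plus). Values are sums over each whole gene.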

How the data were processed

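Kidney RNA of 12 libraries was extracted with QIAzol, treated with DNase and made into directional libraries, per the labels' protocols. The submitters' processing notes name bcl2fastq 2.19, cutadapt 1.18, Salmon 1.2.1, R 3.5.1 and the build mRatBN7.2. The deposited gene table holds estimated counts made by the authors (33.1% of non-zero values were not whole, tolerance 1e-06). A second deposited table, the annotated one, holds the same values after the authors' scaling (unit signal). It gave the gene symbols and coordinates, and its means chose the row of a repeated symbol. Its values otherwise served only to recover the authors' scaling factors, for an alternative.

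Counts were rounded. Genes passed filterByExpr with a minimum count of 10, which kept 99.95% of reads. All 12 libraries were fitted together without covariates by edgeR 4.0.16 (TMM factors 0.887 to 1.11, quasi-likelihood test) in R 4.3.3, with Benjamini-Hochberg adjustment over 14664 genes and a threshold of 0.05. DESeq2 1.42.0, limma 3.58.1 (voom), other scalings and filters, a replicate block and leaving out each library were alternatives. CPM use TMM factors, and fold changes are fitted values. Ratios used unrounded estimated counts plus 0.5. The Calb1 to Pvalb ratio was not computed, which left 9 ratio tests. The scripts were tested on simulated data.

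The members and lists were chosen with earlier results of these data known. Named genes were all members, up to 3 genes of smallest p per list and comparison among those called, Slc12a3, Casr, Cldn16, Vdr, Egf and Cyp27b1, and for each member the 3 genes (mean of at least 2 CPM) with the most similar deviations; other list genes were named after their values were seen. Upstream sequences are from RefSeq (GRCr8), and those of Trpv5 and Trpv6 were matched by gene ID and symbol. By symbol alone, 9 of the 10 members had a window there. No coordinate was converted between builds.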

Additional observations from a re-analysis of the deposited data

Results flagged for a closer look

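Of 27 groups of 4 libraries examined for the 9 genes, 2 held a library far from the other 3 (gap over range above 0.829), both for Trpv5. CPB library 4 was the highest of its group at 122 CPM, and sham library 2 was the lowest of its group at 7 CPM. Chance flags about 1 in 20 groups.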

How the results depend on the processing

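In CPB against sham, 8 of the 9 genes passed in every setting that kept all libraries, and 6 to 8 passed with 1 library left out; the calls of Trpv5, Trpv6 and Cnnm2 were the ones lost. With total counts alone the median of all genes in CPB against sham was -0.24 on the log2 scale, beside -0.05 with TMM factors. They moved the share of higher calls to 34.8%, against 50.3% with TMM factors, and turned Trpm7 (-0.11). In CPB+Nitrite against CPB the number of genes called was 0 by edgeR, 2239 by DESeq2 and 1 by limma voom, and that of members 1 by DESeq2; leaving out 1 library gave 0 to 2865 genes and 0 to 1 members (2865 without CPB+Nitrite library 1, 4 without CPB library 1). The sign turned for Trpm7 with median-of-ratios factors (-0.0174), DESeq2 (-0.0174), no filter (-0.0142) and the replicate block (-0.0608), and for Slc12a3 with the replicate block (-0.0037). With 1 library left out, changes ran from -0.313 to 0.206 for Trpm7, -0.83 to 0.0534 for Trpv5, -0.170 to 0.587 for Slc12a3, -0.0335 to 0.766 for Cldn16 and -0.523 to 0.233 for Egf. In CPB+Nitrite against sham, 705 genes and 2 members became 28 and 0 with the replicate block, 2171 and 6 by DESeq2, 2870 and 5 by limma voom, and 0 and 0 with the libraries of these groups only; leaving out 1 library gave 0 to 2976 genes and 0 to 6 members, and Trpm7 ran from -0.206 to 0.289 (total counts -0.0128). The Trpv5 to Trpv6 ratio in CPB against sham turned to 0.15 with a pseudocount of 5 and to 0.54 on CPM. The cause of these shifts was not tested. No clear pairing by replicate number was seen, with 3 of 12 same-number correlations over 0.1. A library was most like its own number in 7 of 24 comparisons. The highest same-number correlation was 0.381 (sham 2 with CPB+Nitrite 2), and the highest of other pairs 0.352. With 4 libraries a group this cannot exclude pairing. The replicate block changed no member's call in CPB against sham. Depth limits Trpv6 most, at 6 to 31 reads in sham libraries.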
